A study of Mus musculus with 3 samples.

Results

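The genes described here are 10 targets of the hypoxia-inducible factors (HIF) that are not enzymes of glycolysis, namely Vegfa, Slc2a1, Slc2a3, Pdk1, Bnip3, Egln1, Egln3, Ankrd37, Adm and P4ha1. Every non-control probe that the authors' gene table or a RefSeq accession in the array files assigns to one of them was taken, which gave 15 probes for 10 genes, out of 55681 non-control probes for 36983 genes and other transcripts. RNA of mouse embryos at stage E8.75 (days of embryonic development) was compared on 3 Agilent arrays with a pair of colours each. On every array, as labelled, Brpf1-deficient RNA carried the red dye Cy5 and wild-type RNA the green dye Cy3, and the embryos had received no treatment. The labels used here name neither the Brpf1 allele, nor the strain, nor how many embryos gave each RNA. The spread between these 3 pairs, which may be technical, is all that the p-values measure. The dyes were never swapped, so dye and genotype cannot be told apart.

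HIF is a transcription factor made of an oxygen-sensitive alpha subunit (Hif1a or Epas1) and a stable partner (Arnt). In the presence of oxygen, prolyl hydroxylases (Egln1, Egln2 and Egln3) mark the alpha subunit for the ubiquitin ligase that contains Vhl, and the subunit is degraded. When oxygen is short, HIF binds a short core sequence in DNA, the hypoxia response element, and raises genes for glucose uptake, for reduced use of mitochondria, for vessel growth and for its own hydroxylases. Embryos at this stage are still building their circulation, and HIF activity is known to be needed for their vessels, heart and placenta.

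Ratios are given on the log2 scale as Cy5 over Cy3, and those above 0 mean a stronger Cy5 signal, the one labelled Brpf1-deficient. The authors' deposited table runs the other way without stating its direction, with a correlation of -0.92 between its ratios and the present ones across 22165 probes, which are not independent replicates. Brpf1 itself, the gene said to be deficient, went against the label. Its spot intensity was 12356.5, 6418 and 5168 in Cy5 and 1772.5, 2125 and 1537 in Cy3 in pairs 1, 2 and 3, a log2 ratio of 1.5 ± 0.19 (SE, n = 3; limma adjusted p = 0.0405). The part of Brpf1 that is disrupted is not stated in the labels, so this probe checks the labels only if it lies inside that part. Every direction given here follows the channel labels. Were the channels exchanged relative to those labels, every direction with respect to genotype would turn, and whether they were was not tested. Uncorrected Cy5 signals were brighter than Cy3 on every array (median log2 ratio 0.817, 0.429 and 0.722 over the probes kept), so a gene can be brighter in Cy5 by eye and still have a negative normalised ratio. At the top of the scale the channels parted further. The brightest probe reached 562744, 525798 and 588509 in Cy5 and 265004, 138687 and 116441 in Cy3, with 0 probes called saturated, and the 544 genes whose mean log2 intensity exceeded 17 had median ratios of 0.88, 0.69 and 0.70 after normalisation.

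None of the 10 HIF targets passed the test over all genes (limma, smallest adjusted p = 0.16), where 1.38% of the 23555 genes tested did. At an unadjusted p below 0.05 there were 5 of 10, against 17.3% of all genes. That count was 2 of 10 with the scanner software's processed signals, where 3454 of 23555 genes did. It was 3 of 10 without pair 1 (2145 of all genes) and 6 of 10 with the mean over all kept probes of a gene (3850). Of these 5, Bnip3, Pdk1, Ankrd37 and Egln1 had less signal in Cy5, a direction in which 9.12% of all genes passed the same unadjusted threshold, and Slc2a3 had more. Bnip3, Pdk1, Ankrd37 and Egln1 were also the 4 of 10 with a ratio below 0 in all 3 pairs, as were 23.8% of all genes. The median ratio of the 10 genes was -0.16, with -0.15, -0.34 and 0.09 in pairs 1, 2 and 3, beside a median of -0.02 for all genes. The 10 genes ranged from -0.65 (Bnip3) to 0.84 (Slc2a3). Fitted probe by probe, 0 of 15 passed (limma), against 0.813% of 31603 probes.

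**Figure D1:**
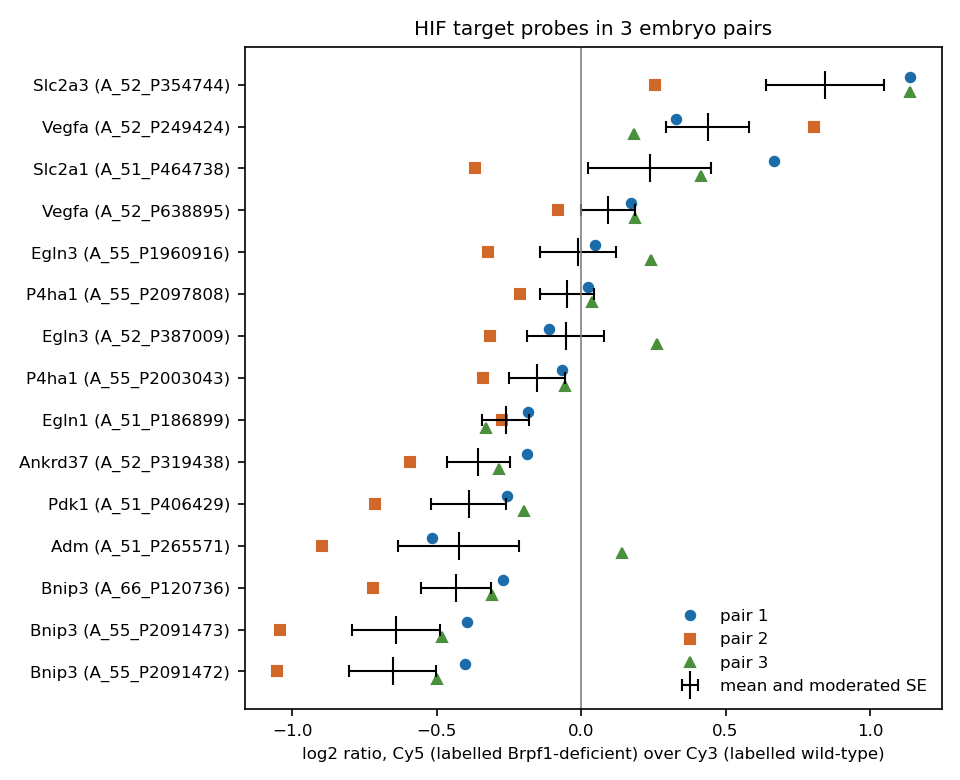
Log2 ratio of Cy5 (labelled Brpf1-deficient) over Cy3 (labelled wild-type) for each of the 15 probes of the 10 HIF targets, named by gene and probe. Symbols are the 3 embryo pairs, and black bars give the mean and the moderated standard error. All 3 Bnip3 probes lie below 0 in every pair, Slc2a3 lies above 0 in every pair, and pair 2 is the lowest pair for most probes.

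The HIF targets that act on mitochondria were both below 0. Bnip3 encodes a mitochondrial outer membrane protein that marks mitochondria for autophagy. The brightest of its 3 probes had intensities of 55893, 40553 and 45525 in Cy5 and 32438, 56821 and 32542 in Cy3 in pairs 1, 2 and 3. Normalised log2 ratios of Bnip3 were -0.40, -1.05 and -0.50, with a mean of -0.65 ± 0.15 (SE, n = 3; limma adjusted p = 0.16), which makes Cy3 1.57-fold brighter. On the normalised scale all 3 Cy5 levels of Bnip3 lay below all 3 Cy3 levels. The second probe gave -0.64 ± 0.15, and the third -0.43 ± 0.12. Pair 2 was the lowest for each of the 3 probes. Its relative Bnip3l, which encodes a receptor of the same autophagy route and is not among the 10, had -0.32, -0.20 and -0.37. The difference of Bnip3 minus Bnip3l was -0.35 ± 0.43 (SD, n = 3, exact sign-flip p = 0.25, the smallest 3 pairs allow). The common sign was lost with a loess span of 0.02 (0.02, -0.76 and -0.05) and with processed signals (0.17, -0.62 and -0.03, mean -0.16), so these relatives were not separated.

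Pdk1 encodes a kinase that turns off pyruvate dehydrogenase and so limits the use of pyruvate by mitochondria. Its 1 probe had 10955.5, 8372 and 10373 in Cy5 and 7199.5, 11838 and 7099 in Cy3. Its log2 ratios were -0.26, -0.71 and -0.20, with a mean of -0.39 ± 0.13 (SE, n = 3; limma adjusted p = 0.243). The 95% interval of the mean was -0.72 to -0.06. As with Bnip3, the normalised Cy5 levels all lay below the Cy3 levels, a separation in this direction that 3 of the 10 HIF targets and 11.1% of all genes showed. The other kinases of the family had mixed signs across the pairs, with means of -0.03 for Pdk2, -0.06 for Pdk3 and -0.36 ± 0.23 (SE) for Pdk4, and Pdha1, the subunit these kinases act on, had -0.16.

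Ankrd37, an ankyrin repeat gene known mainly as a sensitive HIF target, also had levels that did not overlap. It had 5076, 3954.5 and 3873 in Cy5 and 3351, 5338.5 and 2940 in Cy3. After normalisation this gave log2 ratios of -0.19, -0.59 and -0.28, with a mean of -0.36 ± 0.11 (SE, n = 3; limma adjusted p = 0.223). Egln1, the main oxygen sensor that marks HIF for breakdown and itself a HIF target, had 2301, 2276.5 and 2085.5 in Cy5 and 1564, 2433.5 and 1649 in Cy3. Its log2 ratios were -0.18, -0.27 and -0.33, the narrowest spread among the 4 genes below 0 in every pair, with a mean of -0.26 ± 0.08 (SE, n = 3; limma adjusted p = 0.227). The levels of Egln1 overlapped between the channels across arrays, although Cy5 was lower within each array.

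Egln3, the hydroxylase of this family that hypoxia induces most strongly in many cells, had no common direction. Its brighter probe had 2997, 2145 and 2490.5 in Cy5 and 1911.5, 2353 and 1306.5 in Cy3. For this probe the log2 ratios were -0.11, -0.31 and 0.26, with a mean of -0.05 ± 0.13 (SE, n = 3; limma adjusted p = 0.854), and the 95% interval was -0.39 to 0.28. The second Egln3 probe gave 0.05, -0.32 and 0.24, so both probes were lowest in pair 2 and highest in pair 3. Egln3 minus Egln1 was 0.07, -0.04 and 0.59 in pairs 1, 2 and 3 (exact sign-flip p = 0.5), which does not separate these sensors. Without pair 2 the mean of Egln3 was 0.08.

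**Figure D2:**
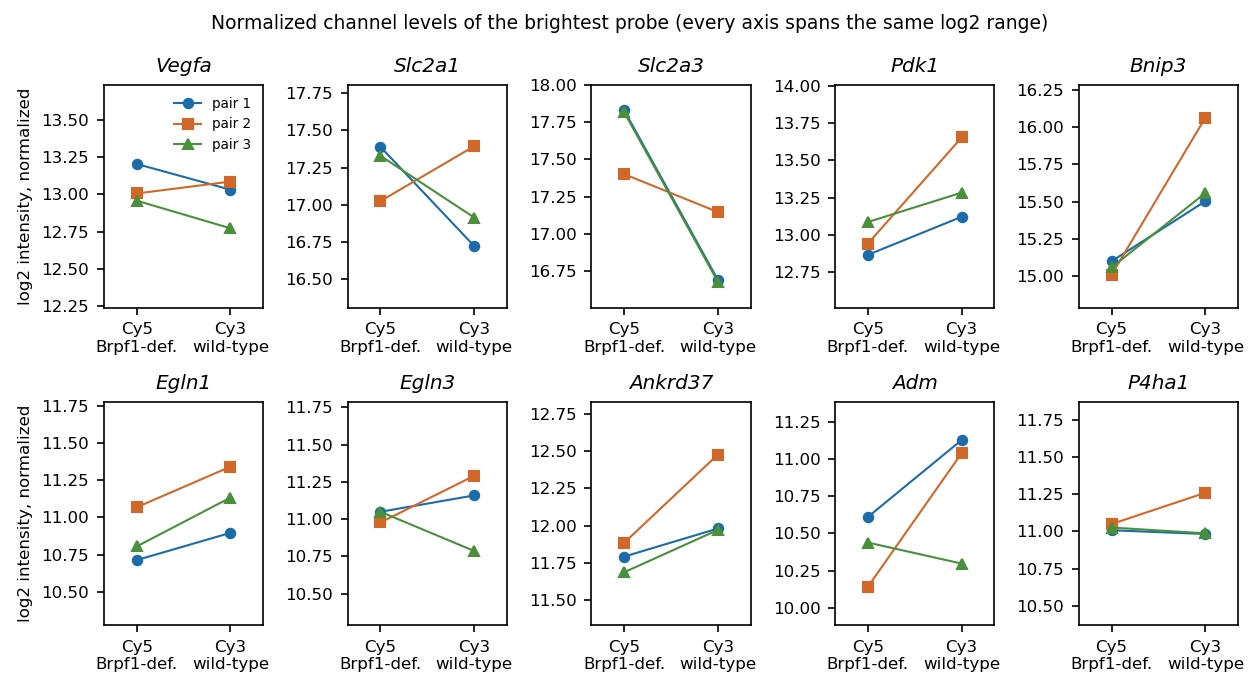
Normalised log2 intensity of the brightest probe of each HIF target in Cy5 (labelled Brpf1-deficient, left) and Cy3 (labelled wild-type, right). Lines join the channels of 1 array, and every panel spans the same range of the log2 scale. In Pdk1, Bnip3 and Ankrd37 all Cy5 points lie below all Cy3 points, in Slc2a3 all lie above, and in Slc2a1 pair 2 runs opposite to pairs 1 and 3.

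The promoter bases of the 4 genes below 0 in every pair, and of Slc2a1 as a gene with mixed signs, are printed here because HIF acts through the core letters ACGTG or GCGTG. The 250 bases before the RefSeq gene start are given 5′ to 3′ on the gene's strand in the GRCm38.p6 build, with these letters on either strand in capitals (CACGT and CACGC are the reverse strand, and matches may overlap). Where RefSeq holds several starts, the window with a match is shown.
Bnip3, chr7:138909507-138909756, minus strand: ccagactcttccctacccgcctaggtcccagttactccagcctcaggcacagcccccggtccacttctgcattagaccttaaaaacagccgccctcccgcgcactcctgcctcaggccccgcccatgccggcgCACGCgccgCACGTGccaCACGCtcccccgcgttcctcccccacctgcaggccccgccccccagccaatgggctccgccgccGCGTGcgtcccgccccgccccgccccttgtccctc
Pdk1, chr2:71872974-71873223, plus strand: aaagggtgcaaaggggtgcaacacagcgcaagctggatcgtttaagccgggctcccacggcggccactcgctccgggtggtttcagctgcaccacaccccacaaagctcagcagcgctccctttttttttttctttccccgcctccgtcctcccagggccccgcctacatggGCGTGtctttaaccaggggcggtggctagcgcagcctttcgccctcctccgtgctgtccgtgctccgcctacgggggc
Ankrd37, chr8:45999851-46000100, minus strand: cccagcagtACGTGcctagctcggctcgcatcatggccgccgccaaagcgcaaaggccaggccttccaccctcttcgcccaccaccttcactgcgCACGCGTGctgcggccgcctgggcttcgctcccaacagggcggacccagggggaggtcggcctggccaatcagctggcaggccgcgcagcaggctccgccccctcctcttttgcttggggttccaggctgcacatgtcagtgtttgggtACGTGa
Egln1, chr8:124949255-124949504, minus strand: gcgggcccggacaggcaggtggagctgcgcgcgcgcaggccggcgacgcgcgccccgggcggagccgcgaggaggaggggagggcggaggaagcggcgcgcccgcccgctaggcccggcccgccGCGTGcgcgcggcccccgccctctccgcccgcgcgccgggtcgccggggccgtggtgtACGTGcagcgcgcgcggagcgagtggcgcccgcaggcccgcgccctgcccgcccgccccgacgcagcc
Slc2a1, chr4:119108495-119108744, plus strand: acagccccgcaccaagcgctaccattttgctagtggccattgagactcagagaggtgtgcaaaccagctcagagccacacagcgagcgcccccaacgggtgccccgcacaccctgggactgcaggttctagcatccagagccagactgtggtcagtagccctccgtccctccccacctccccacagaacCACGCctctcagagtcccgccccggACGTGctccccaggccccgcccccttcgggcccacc
The Bnip3 window holds 5 matches and the Ankrd37 window 4, each with 1 pair that overlaps on opposite strands. The Egln1 and Slc2a1 windows hold 2 each and the Pdk1 window 1. Of the 10 genes, 9 have promoter entries there, and all 9 hold a match in at least 1 window, as do 41.5% of 27025 genes. By windows these counts were 9 of 11, against 38.6% of 32851. The windows without a match were the more upstream one of Vegfa and the more downstream one of Pdk1, so Vegfa counts only through its more downstream start. The windows of the HIF targets hold a median of 13 CG pairs and those of all genes 6, and both motifs contain CG. Genes with a ratio below 0 in all pairs and genes without one thus both carry the letters, which are a description of sequence and not evidence of binding.

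The glucose transporters lay at the bright end of the arrays' range, and their values depended on the brightness correction. Slc2a3 encodes GLUT3, a high-affinity glucose transporter. It had 357380, 251361 and 369095 in Cy5 and 57777, 112505 and 69783.5 in Cy3. The log2 ratios were 1.14, 0.25 and 1.14, with a mean of 0.84 ± 0.20 (SE, n = 3; limma adjusted p = 0.167), a 1.8-fold difference. All 3 normalised Cy5 levels lay above the Cy3 levels, but the share of all genes separated in this direction was not counted. With a mean log2 intensity of 17.3, Slc2a3 sits among the 544 brightest genes described above, whose median was 0.88, 0.69 and 0.70. With loess at a span of 0.02, which pulls the median ratio to 0 at every brightness, Slc2a3 had 0.35, -0.40 and 0.48, a mean of 0.14 ± 0.19 (SE; limma adjusted p = 0.731). With median centring, which leaves the brightness trend in place, it had 1.4 ± 0.25 (SE) and passed the threshold (limma adjusted p = 0.0263).

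Slc2a1 encodes GLUT1, the widespread glucose transporter that also serves red cells and the placenta. It had 269056, 191660 and 258165 in Cy5 and 61592, 133488 and 81825.5 in Cy3. The log2 ratios were 0.67, -0.37 and 0.41, with a mean of 0.24 ± 0.21 (SE, n = 3; limma adjusted p = 0.58). Pair 2 lay on the other side of 0 from pairs 1 and 3. With a span of 0.02 the ratios of Slc2a1 were 0.05, -0.95 and -0.13, with a mean of -0.34 ± 0.21, and with the scanner software's processed signals the mean was -0.28 ± 0.22, so its sign turned. With median centring the mean of Slc2a1 was 0.77 ± 0.26 (SE; limma adjusted p = 0.262), without pair 2 it was 0.54, and without pair 1 it was 0.02. Slc2a3 minus Slc2a1, which lie at a similar brightness on the same arrays, was 0.47, 0.62 and 0.72 in pairs 1, 2 and 3. That difference kept its sign in every pair with a span of 0.02 (0.29, 0.55 and 0.61) and with processed signals (0.39, 0.53 and 0.62), and the exact sign-flip p was 0.25, the smallest possible with 3 pairs. Of 24 relatives and partners of the 10 genes, 23 were measured and 0 passed (limma), with a median of -0.05. At an unadjusted p below 0.05, where 9.12% of all genes were lower and 1938 of 23553 higher, 3 of these 23 were lower and 1 higher. Among them Slc2a2, the transporter of visceral endoderm and liver, had 0.39, 0.65 and 0.64 (mean 0.56 ± 0.09, SE; limma adjusted p = 0.0867), while Slc2a4 and Slc2a5 had -0.42 ± 0.12 and -0.24 ± 0.08 (adjusted p = 0.208 and 0.245).

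**Figure D3:**
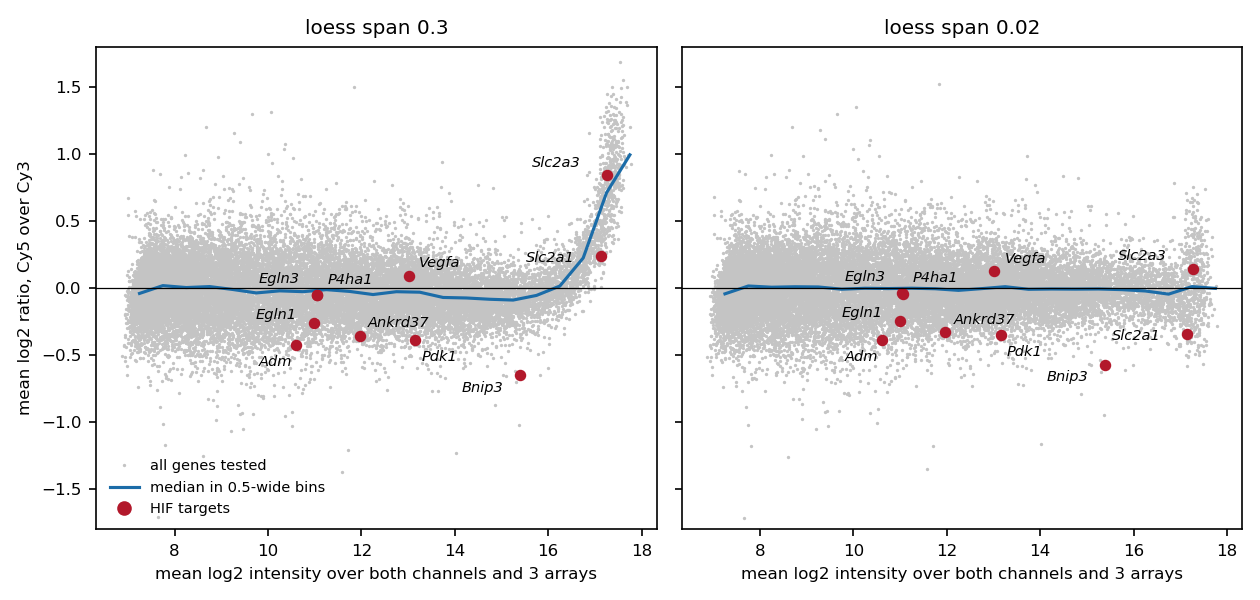
Mean log2 ratio of Cy5 over Cy3 (y axis) against mean log2 intensity over both channels and 3 arrays (x axis) for all genes tested (grey) and the HIF targets (red), with loess at a span of 0.3 (left) and 0.02 (right). The blue line is the median of all genes in bins 0.5 wide. The line climbs steeply above an intensity of 16 in the left panel, where Slc2a3 and Slc2a1 lie, and is flat in the right panel, where Bnip3, Pdk1, Ankrd37, Egln1 and Adm stay near their left-hand values.

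The secreted signals gave mixed values. Vegfa encodes the growth factor that drives the assembly of embryonic vessels. Its brighter probe, spotted in duplicate on each array, had 13998, 8688 and 9594 in Cy5 and 6772, 8007 and 5084.5 in Cy3 (means of the duplicate spots). The log2 ratios were 0.17, -0.08 and 0.19, with a mean of 0.09 ± 0.09 (SE, n = 3; limma adjusted p = 0.628), and the duplicate spots parted furthest in pair 3, at 0.17 and 0.20. The second, dimmer probe had 2188, 2069 and 1970 in Cy5 and 1047, 1007 and 1097 in Cy3, with log2 ratios of 0.33, 0.81 and 0.18 and a mean of 0.44 ± 0.14 (limma adjusted p over probes = 0.267). The probes of Vegfa thus disagreed most in pair 2, where one was the lowest and the other the highest of the 3 pairs. They cite different RefSeq transcripts of the gene, and which transcripts each detects was not analysed here. Among relatives and receptors, Vegfb had 0.00, Vegfc -0.05, Vegfd -0.19, and the coreceptors Nrp1 and Nrp2 0.02 and 0.19.

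Adm encodes adrenomedullin, a peptide that widens vessels and is needed for vessel and placental development. It had 2199, 1262 and 1605 in Cy5 and 1856.5, 1981 and 925 in Cy3. Log2 ratios of Adm were -0.52, -0.90 and 0.14, with a mean of -0.42 ± 0.21 (SE, n = 3; limma adjusted p = 0.356) and a 95% interval of -0.95 to 0.10. Pair 3 lay on the other side of 0. The mean of Adm ranged from -0.71 without pair 3 to -0.19 without pair 2. Calcrl, its receptor, had 0.18, 1.29 and 0.24, and the receptor partners Ramp2 and Ramp3 had 0.21 and 0.08. The Calcrl signal was dim (mean log2 intensity 7.48), with a Cy3 intensity of 104 in pair 2. The related peptide Adm2 did not stand well above background in the Cy5 channel of any array. Its mean ratio of -0.54 ± 0.13 (SE; limma adjusted p = 0.174) makes Cy3 1.46-fold brighter. The 95% interval was -0.89 to -0.20, and this estimate rests on a Cy5 signal near background.

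P4ha1 encodes the catalytic subunit of the prolyl hydroxylase that stabilises collagen. With Egln3, it was one of the HIF targets nearest to 0. Its brighter probe had 2852.5, 2239 and 2422 in Cy5 and 1664.5, 2302 and 1492 in Cy3, with log2 ratios of 0.03, -0.21 and 0.04 and a mean of -0.05 ± 0.09 (SE, n = 3; limma adjusted p = 0.805). The 95% interval was -0.28 to 0.19. The second P4ha1 probe gave -0.07, -0.34 and -0.05. Its paralogue P4ha2, another HIF target, had -0.47, -0.67 and -0.20, with a mean of -0.45 ± 0.11 (SE; limma adjusted p = 0.187).

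Of the 15 probes, 12 are listed in the authors' deposited table. Turned to Cy5 over Cy3, the authors' deposited table gives 0.82 for Slc2a3, 0.21 for Slc2a1 and -0.67 for the brightest Bnip3 probe. It likewise gives -0.39 for Pdk1, -0.36 for Ankrd37 and -0.26 for Egln1, and the smallest adjusted p among the 12 in the authors' deposited table is 0.394, for Bnip3.

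The wider pathway was read from lists chosen with earlier results of these data known. Of 36 other textbook HIF targets outside glycolysis, all 36 measured, 0 passed the threshold (limma, smallest adjusted p = 0.142). At an unadjusted p below 0.05, where 9.12% of all genes were lower in Cy5, 12 of these 36 were lower and 0 higher. Their median was -0.23, with -0.18, -0.47 and -0.12 in pairs 1, 2 and 3, and 32 of 36 means lay below 0, as did 54.4% of all genes. The 5 with the smallest p were Ddit4, an inhibitor of mTORC1 (-0.77 ± 0.16, SE; adjusted p = 0.142), Ero1a, an oxidase of the endoplasmic reticulum (-0.39 ± 0.09), Epo, the hormone of red cell production (-0.34 ± 0.08), Fam162a, a mitochondrial protein (-0.38 ± 0.10), and P4ha2. In Ddit4 the pairs had -0.31, -0.92 and -1.07. The vessel receptors Flt1 and Kdr, on the same list, had 0.13 and 0.06.

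Of 16 HIF subunits, sensors and cofactors, 15 were measured and 0 passed (limma, smallest adjusted p = 0.188). At an unadjusted p below 0.05, where 9.12% of all genes were lower in Cy5, 2 of these 15 were lower and 0 higher. Their median was -0.08. Hif1a, the widespread alpha subunit, had -0.20, -0.41 and 0.12 (mean -0.16 ± 0.12, SE). Arnt, its partner, had -0.24, -0.59 and -0.07 (-0.30 ± 0.12; adjusted p = 0.301), and Cited2, which competes with HIF for its coactivators, -0.64, -0.68 and -0.04 (-0.45 ± 0.15; adjusted p = 0.249). With the mean over all kept probes of a gene, Arnt had -0.08 ± 0.07 (SE) and Cited2 -0.31 ± 0.12. Vhl had -0.16 ± 0.08, Egln2 -0.10 ± 0.08 and Hif1an, the asparagine hydroxylase of HIF, 0.11 ± 0.09. Epas1, the alpha subunit of endothelium, had -0.24, -0.81 and 0.85, the widest spread of these genes.

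The glycolytic enzymes, also HIF targets, include many bright genes. Of 16, all measured, 4 were lower (Aldoc, Hk2, Eno2 and Hk1) and 5 higher at an unadjusted p below 0.05, where 9.12% of all genes were lower. In the test over all genes, which 1.38% of them passed, 14 did not pass and 2 rose. These were Ldha at 1.25 ± 0.10 (SE; limma adjusted p = 0.0232) and Gapdh at 0.92 ± 0.11 (adjusted p = 0.0353). With a span of 0.02 these were 0.52 for Ldha and -0.12 for Gapdh, and with processed signals 0.65 for Ldha and 0.14 for Gapdh. Neither passed with the mean over all kept probes of a gene (0.74, adjusted p = 0.0734 for Ldha and 0.73, adjusted p = 0.0926 for Gapdh). Without any 1 pair 0 of all genes passed, these included. The median was 0.14 with a span of 0.3 and -0.31 with a span of 0.02, while the medians of the 10 HIF targets were -0.16 and -0.29 and those of the 36 others -0.23 and -0.20. With a span of 0.02, 0 of all genes passed (limma), those of these lists included. Bnip3, Pdk1, Ankrd37 and Egln1 were then the 4 of 10 HIF targets at an unadjusted p below 0.05. At this span 3508 of 23555 genes reached that level. With processed signals Pdk1 and Ankrd37 no longer reached that level (limma adjusted p = 0.36 and 0.357), and with median centring Bnip3 and Pdk1 did not (adjusted p = 0.529 and 0.464).

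**Figure D4:**
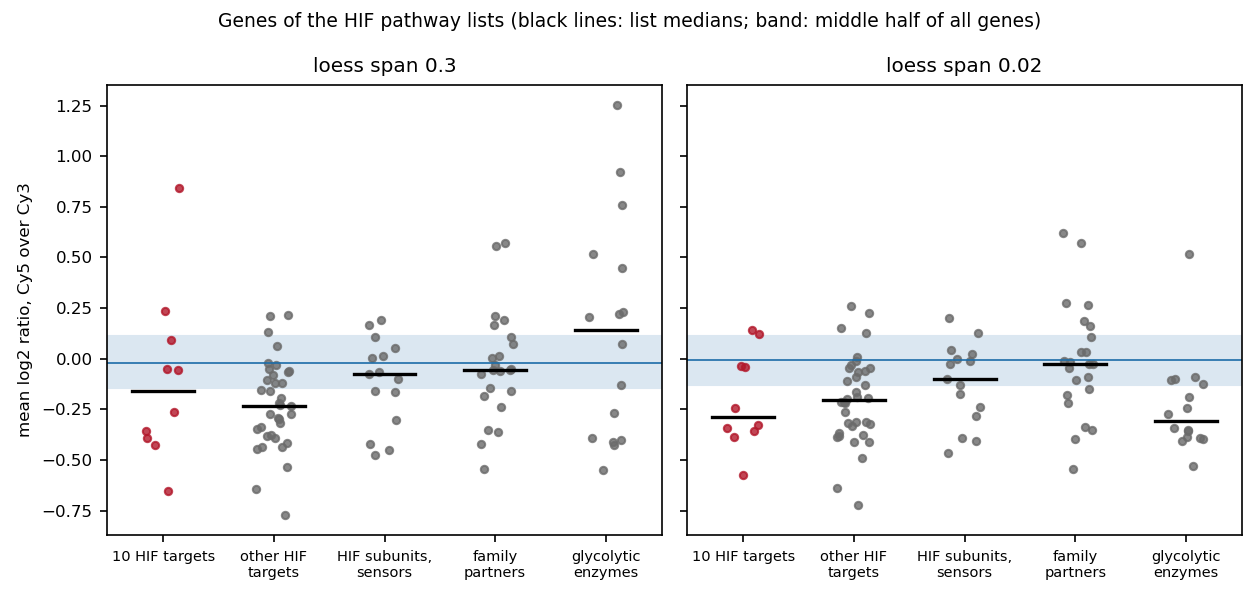
Mean log2 ratio of Cy5 over Cy3 for each measured gene of the HIF pathway lists, with loess at a span of 0.3 (left) and 0.02 (right). Each point is a gene, black lines are list medians, the blue line is the median of all genes and the band their interquartile range. The medians of the 10 HIF targets and of the other HIF targets lie below the blue line in both panels, and that of the glycolytic enzymes moves across it, 0.14 on the left and -0.31 on the right.

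The pairs differed from each other in markers of other tissues. Pair 2 had the lowest ratio in 9 of the 10 HIF targets, and in 44.2% of all genes. In bulk RNA, fewer cells of a type and less RNA per cell cannot be told apart. Markers of maternal decidua, the uterine tissue around the embryo, had medians of -0.19, -0.91 and 0.60 over 9 of 10 listed genes measured, with Dcpp1 not well above background. The 2 markers with the smallest p were Hoxa10 (0.51 ± 0.25, SE) and Adamts5 (-0.30 ± 0.16). Hoxa10 had 0.13 without pair 3, and Adamts5 was well above background in Cy5 on 1 of 3 arrays and had -0.96 with processed signals. Prl8a2, a prolactin relative made by decidua and chosen after its values were seen, had 28830, 3229 and 28469 in Cy5 and 22904, 32432 and 10551 in Cy3. After normalisation its ratio was -0.74 in pair 1, -3.55 in pair 2 and 0.60 in pair 3.

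Trophoblast markers had medians of 0.08, -0.56 and 0.26 over 9 of 12 genes, with Tpbpa, a defining gene, and Psg16 not well above background and no probe named for Prl2c2. Their 2 smallest p belonged to Pcdh12 (0.27 ± 0.10, SE) and Phlda2 (-0.15 ± 0.08). The medians of decidua and trophoblast markers were lowest in pair 2 and highest in pair 3. The median of the 10 HIF targets had this order too, as had 5 of the 10 genes (Adm, Pdk1, Egln3, P4ha1 and Vegfa), 9 of 15 HIF subunits, sensors and cofactors, 14 of 36 other targets and 25% of all genes. The order is not particular to these lists. The median of all genes had it as well, within a narrow range (-0.016, -0.038 and -0.005 in pairs 1, 2 and 3). So had the medians of the other targets, of the HIF subunits, sensors and cofactors, and of the relatives and partners. The part of decidua and trophoblast cells in the results was not tested. Without pair 2 the means were -0.45 for Bnip3, -0.23 for Pdk1, -0.24 for Ankrd37 and -0.26 for Egln1, all still below 0, and that of P4ha1 was 0.03.

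Primitive erythroid markers had medians of -0.57, 0.50 and 0.14 (11 of 12 genes), visceral endoderm markers 0.16, 0.46 and 0.54 (13 of 13), endothelium markers -0.15, 0.03 and 0.14 (12 of 12) and markers of the embryo proper -0.02, -0.11 and -0.07 (14 of 14, so the labelled tissue was represented). Among these the called genes were Hbb-bh1, an embryonic globin (1.28 ± 0.16, SE; limma adjusted p = 0.0418), and Apoc2, a yolk sac apolipoprotein (1.16 ± 0.12; adjusted p = 0.0296), both bright. With a span of 0.02 or without any 1 pair 0 of all genes passed, so those settings do not single these genes out. With a span of 0.02 Hbb-bh1 had 0.23 ± 0.36 (SE) and Apoc2 0.79 ± 0.08. The others named by smallest p were Hba-x (0.55 ± 0.20, and -0.34 with a span of 0.02), Rbp4 (0.81 ± 0.11), Tie1 (0.27 ± 0.09), Sox18 (0.17 ± 0.09), Tnnt2 (-0.36 ± 0.08) and Tcf15 (0.48 ± 0.14), none past the threshold. The named genes do not stand for their lists. Of the erythroid means 7 lay above 0 and 4 below, among them Slc4a1 (-0.30) and Tal1 (-0.27). Of the endothelium means 6 lay above 0 and 6 below, among them Cdh5 (-0.22). The part of these tissues in the values of Slc2a1 and Slc2a3, which they also express, was not tested.

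**Figure D5:**
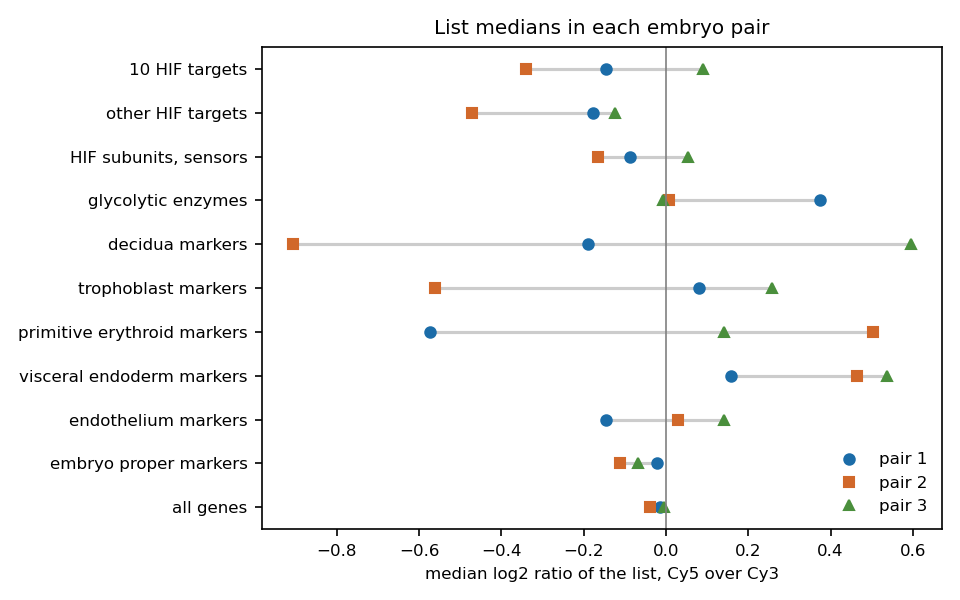
Median log2 ratio of Cy5 over Cy3 of each list in each embryo pair (symbols), with a grey line from the lowest to the highest pair. The HIF target lists and the decidua and trophoblast markers are lowest in pair 2, the erythroid markers are lowest in pair 1, and the median of all genes stays near 0 in every pair.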

How the data were processed

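The labels' protocols state 350 ng of RNA per sample, 1 round of amplification and dye coupling afterwards. Per the file headers, Feature Extraction 10.7.3.1 made the intensity values, which are median brightness of each spot and its background. The authors' deposited table of 40000 probes holds log2 ratios, mean log2 intensities and p-values; the submitters' processing notes name limma, with settings not given in the sources used here. Per the file headers all 3 arrays lay on 1 slide, scanned once, which leaves no batch to compare.

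Here normexp (offset 50) corrected the background. Loess within each array (span 0.3) then normalised the log2 ratios, giving no weight to controls or outliers. Spots called outliers were dropped, and the rest averaged per probe. Probes well above background in 1 channel on at least 2 arrays were kept (31603 of 55681), and the brightest stood for its gene (23555 tested). Of 29123 probes with a RefSeq accession, 27656 were matched to 1 gene of GRCm38.p6. The mean over 3 pairs was tested against 0 with limma 3.58.1 (R 4.3.3, two-sided, Benjamini-Hochberg over all genes, threshold 0.05), a step tested on simulated data. Channel levels were scaled with Aquantile. The number of arrays limits the precision. Members and lists were chosen with earlier results of these data known. Named besides the 10 genes are Brpf1, 7 preset HIF subunits and sensors, and the 5, 4 and 2 genes with the smallest p among other targets, partners and glycolytic enzymes, and 2 of each marker list. Genes outside this rule are given as values of relatives, or were chosen after their values were seen. The alternatives were a loess span of 0.02, processed signals, median centring, no background correction, no filter, the mean over all probes of a gene and omission of each pair.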

Additional observations from a re-analysis of the deposited data

How the results depend on the processing

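The count of HIF targets past the threshold stayed at 0 under all alternatives run except median centring, which gave 1 (Slc2a3). The median of the 10 HIF targets moved by less than the spread between pairs under all alternatives and ranged from -0.22 to -0.08 when 1 pair was omitted. All genes past the threshold numbered 326, and 651 with median centring, 201 with the mean over all kept probes of a gene, and 0 with a loess span of 0.02, with processed signals and without any 1 pair (limma; 3508, 3454 and 2145 to 3831 genes at an unadjusted p below 0.05). The cause was not tested. With a span of 0.02 the sign turned for Slc2a1 (-0.34), Gapdh (-0.12) and Hba-x (-0.34), and with processed signals for Slc2a1 (-0.28) and Hba-x (-0.15). With median centring it turned for Hif1an (-0.021) and Phlda2 (0.062), and with the mean over probes for Epas1 (0.070) and Egln2 (0.042). When 1 pair was omitted, the ranges across 0 were -0.21 to 0.077 for Egln3, -0.092 to 0.032 for P4ha1 and -0.52 to 0.31 for Epas1. The tests are already paired, because each ratio sets the channels of 1 array against each other. The brightest probe of each of the 10 HIF targets was well above background in both channels on all 3 arrays, so background does not limit these probes. For the remaining probes this was not counted by channel. What limits the values is 3 arrays with 1 dye orientation.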

Other observations

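Some HIF pathway genes moved far apart between the pairs, so that their means hide opposite values. They were chosen after their values were seen. Ndrg1, a stress gene that hypoxia induces, had log2 ratios of -0.10, -0.95 and 0.90 in pairs 1, 2 and 3. Their average was -0.05 ± 0.34 (SE; limma adjusted p = 0.95). Lox, the enzyme that crosslinks collagen, had -1.02, -1.35 and 0.45. Bhlhe40, a repressor that HIF induces, had -0.28, -0.84 and 0.44. Each was lowest in pair 2 and highest in pair 3. By contrast Epo had -0.37, -0.30 and -0.33, and Mxi1, an antagonist of Myc, -0.17, -0.17 and -0.15, among the closest agreement between pairs on the list of other HIF targets. Epo and Mxi1 were dim, with mean log2 intensities of 7.97 and 7.35, so their agreement rests on weak signals. Lox was dim too (8.35).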
